A study of Mus musculus with 6 samples.

Results

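The genes described here encode the kinetochore and the spindle checkpoint, the machinery that ties chromosomes to the mitotic spindle and holds back anaphase until every chromosome is attached. They are 46 genes taken by symbol from the 54532 genes of the deposited table. They comprise the centromeric histone CENP-A with its chaperone, 14 subunits of the constitutive centromere-associated network (CCAN), the NDC80, MIS12 and SKA complexes, the outer corona with RZZ subunits, the checkpoint proteins, the chromosomal passenger complex and the regulators of anaphase onset. The list was drawn by function and not by a measured value, though with earlier results of these data known. All 46 had enough reads to be tested.

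As background, nucleosomes that contain CENP-A mark the centromere, and the CCAN binds them and stays there through most of the cell cycle. The MIS12 and NDC80 complexes assemble on this base in mitosis and grip the microtubules, and the SKA complex strengthens that grip. Unattached kinetochores recruit TTK, BUB and MAD proteins, which keep CDC20 from switching on the anaphase-promoting complex. Many of these genes are transcribed mainly in late S, G2 and M phase, so their RNA is scarce in cells that have left the cycle.

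The samples were mouse cardiosphere-derived cells, grown from explants of C57BL/6 ventricular epicardium and immortalized with human telomerase reverse transcriptase (hTERT) under a CMV promoter carried by a lentivirus. Control cells and induced cells both carried hTERT and were both at passage 30, with 3 libraries each. Induced cells had been given 5-azacytidine, an inhibitor of DNA methylation, at 10 µM for 3 days and, by the labels, 4 weeks of IMDM with 2% serum. The methods of the study give another medium and a shorter culture for cardiac induction, and no source used here describes the same late culture for the control cells. Drug, serum and time in culture cannot be told apart in this comparison. One hTERT line was used, and the labels speak of separate samples without saying whether they were separate cultures, so p-values measure only the spread between these libraries. In such bulk samples, fewer cells in mitosis and less of these RNAs per cell cannot be told apart.

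Each library held 19041133 to 19823369 reads assigned to genes, and every library resembled its own group more closely than the other one. All 6 mesenchymal markers of cardiosphere-derived cells were present, with a summed depth-scaled read count (CPM) of 8292 to 8661 in control and 6439 to 7040 in induced libraries. The 5 epicardial markers summed to 372.8 to 386.6 CPM in control and 1233 to 1379 CPM in induced libraries. Endothelial markers stayed at or under 1 CPM, all 4 of 4, and so did 5 of 6 cardiomyocyte markers. Of 6 leukocyte markers, Ptprc, Cd52, Tyrobp and Itgam had no reads, and the summed level, which came from Cd68 and Csf1r, was 23.6 to 25.8 CPM in control and 36.4 to 42.7 CPM in induced libraries. The part of these shifts in the results below was not tested.

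The question was how RNA for chromosome attachment and its checkpoint differed between control cells and induced cells. In the edgeR quasi-likelihood test, adjusted after Benjamini and Hochberg over all 14246 genes tested, 45 of the 46 genes passed an adjusted p of 0.05, where 64.8% of all genes tested did. Of these, 44 fell in induced cells, where 32.2% of all genes tested fell. A single gene, Zwint, rose, against 32.6% of all genes tested, and Mis12 did not pass the threshold. The fall was at least 2-fold for 36 of the 46, against 7.83% of all genes tested, and at least 4-fold for 12 of the 46, against 2.03%. The median log2 fold change was -1.62 for the 46 genes and -0.01 for all genes tested. In 44 genes every induced library lay under every control library, a pattern found in 34.5% of genes tested. Zwint showed the opposite separation, found in 34.1%. Together the 46 genes had 1482 to 1556 CPM in control libraries and 697.4 to 712.7 CPM in induced libraries. Hjurp, Zwint and Bub3 had the highest control CPM of the 46 and kept 51.5%, 121.6% and 87.2% of it, so leaving them out deepens the summed fall. Without Hjurp, Zwint and Bub3, the other 43 genes summed to 1069 to 1125 CPM in control and 358.5 to 372.7 CPM in induced libraries.

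**Figure D1:**
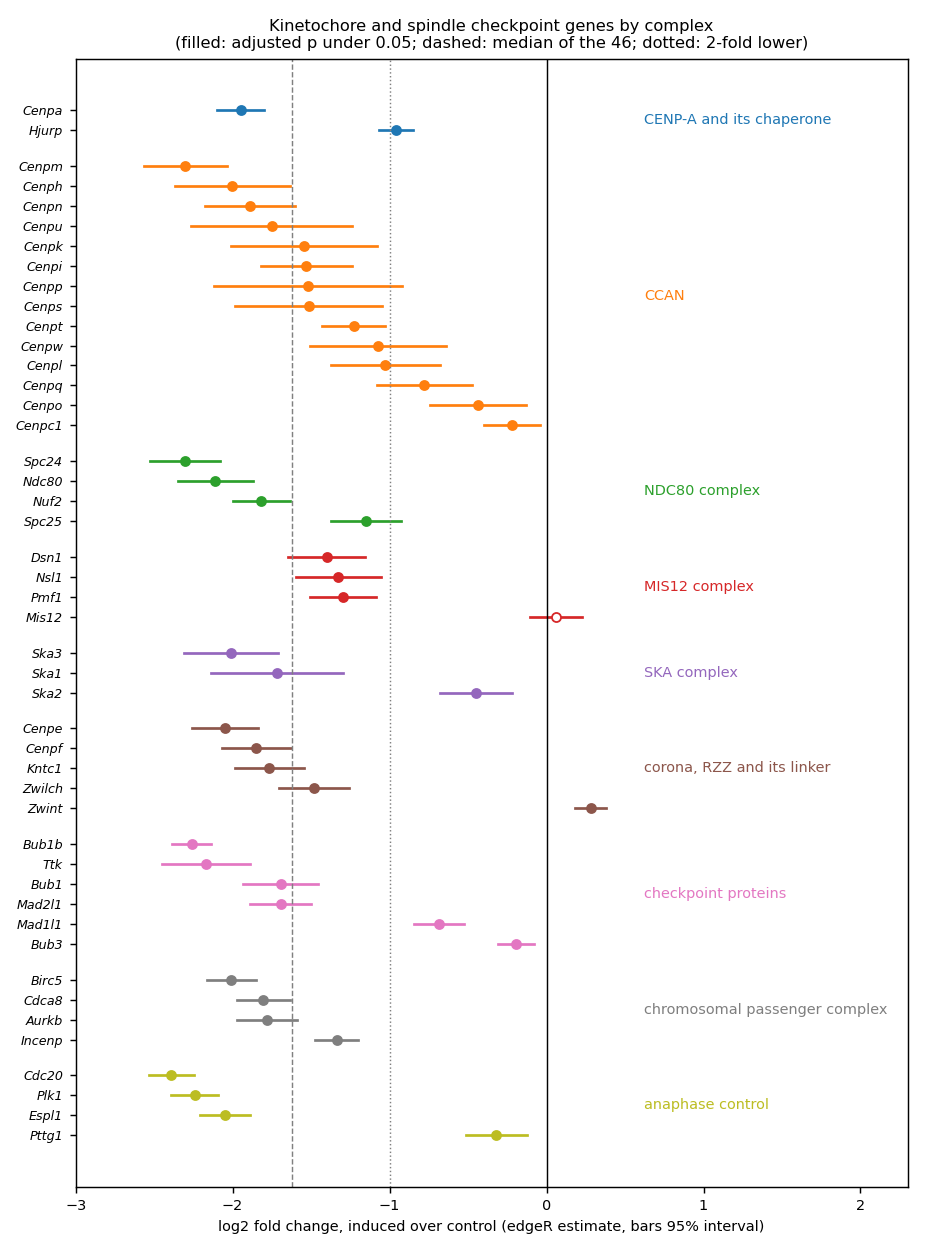
Log2 fold change (induced over control) of the 46 genes, grouped by complex and ordered within it. Points are edgeR estimates, bars are 95% intervals, and the open circle marks the gene that did not pass. The dashed line is the median of -1.62, and Mis12 and Zwint are the points at or right of 0.

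The spread among the 46 genes was wide, from -2.39 for Cdc20 to 0.28 for Zwint on the log2 scale. The standard errors ran from 0.05 to 0.28, so the ends of that range lay far apart against the error of each gene. The fold change had little relation to how abundant a transcript was in control cells. Across the 46 genes, the log2 fold change and the log2 control level per kilobase had a Pearson r of -0.03 and a Spearman rho of -0.13, given as a description of points that share the same 6 libraries. The 12 genes lower by 2 or more on the log2 scale came from 7 of the 9 groups, and those lower by under 0.5 came from 4 groups. The range within complexes is therefore described group by group.

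The promoters were examined because many genes of G2 and M phase share 2 promoter elements. One is the cell cycle genes homology region (CHR), a short site bound by the MuvB complex, and the other is the CCAAT box, bound by the trimeric factor NF-Y. RefSeq promoters of GRCm38.p6, from 250 bases before to 50 after the transcription start, were given for 40 of the 46 genes. The search used TTTGAA or TTCGAA for the CHR and CCAAT for the CCAAT box, on both strands. A CHR and a CCAAT word can share an end base, as they do in Cdca8, and both are then counted. The following 5 promoters are shown 5′ to 3′ on the strand of the gene, with CHR and CCAAT words in capitals. Cdc20, Plk1 and Cenpa were picked as examples among the genes that fell steeply, and not by a rule. Zwint and Mis12 are those that did not fall.
Cdc20 (chr4:118437294-118437593, minus strand): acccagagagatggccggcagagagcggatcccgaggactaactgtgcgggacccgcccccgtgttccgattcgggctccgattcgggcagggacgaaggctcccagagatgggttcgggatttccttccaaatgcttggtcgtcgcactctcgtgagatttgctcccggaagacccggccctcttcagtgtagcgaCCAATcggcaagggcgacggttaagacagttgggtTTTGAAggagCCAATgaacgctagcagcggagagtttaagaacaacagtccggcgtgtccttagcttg
Plk1 (chr7:122159185-122159484, plus strand): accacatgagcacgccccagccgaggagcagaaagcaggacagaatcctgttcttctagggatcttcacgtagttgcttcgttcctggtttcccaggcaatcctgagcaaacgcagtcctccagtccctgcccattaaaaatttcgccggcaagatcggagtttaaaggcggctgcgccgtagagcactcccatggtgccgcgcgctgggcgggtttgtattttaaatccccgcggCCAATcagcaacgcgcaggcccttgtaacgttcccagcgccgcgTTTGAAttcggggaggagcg
Cenpa (chr5:30666636-30666935, plus strand): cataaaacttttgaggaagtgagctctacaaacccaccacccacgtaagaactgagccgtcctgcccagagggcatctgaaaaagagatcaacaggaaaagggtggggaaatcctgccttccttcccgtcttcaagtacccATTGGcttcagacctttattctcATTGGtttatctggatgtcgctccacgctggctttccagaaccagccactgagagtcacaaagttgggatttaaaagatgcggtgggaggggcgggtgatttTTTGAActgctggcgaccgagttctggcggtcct
Zwint (chr10:72654596-72654895, plus strand): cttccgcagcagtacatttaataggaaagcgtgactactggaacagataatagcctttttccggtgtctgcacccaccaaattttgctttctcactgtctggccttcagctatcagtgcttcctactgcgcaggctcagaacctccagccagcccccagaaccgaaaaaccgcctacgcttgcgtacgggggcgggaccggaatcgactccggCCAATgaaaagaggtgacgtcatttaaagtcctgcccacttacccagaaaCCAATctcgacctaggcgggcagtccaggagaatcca
Mis12 (chr11:71019361-71019660, plus strand): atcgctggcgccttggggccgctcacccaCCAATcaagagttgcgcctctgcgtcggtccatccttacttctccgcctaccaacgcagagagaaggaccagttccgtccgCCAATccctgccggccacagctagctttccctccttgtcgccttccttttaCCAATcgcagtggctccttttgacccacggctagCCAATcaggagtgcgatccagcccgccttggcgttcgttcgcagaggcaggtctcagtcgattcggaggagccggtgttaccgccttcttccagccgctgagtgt

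In these 5 sequences the CHR word lay close to the start, counted as +1, in the 3 genes that fell. It began at -18 in Cdc20, at +31 in Plk1 and at +17 in Cenpa. CCAAT words began at -53 and -8 in Cdc20 and at -14 in Plk1, and Cenpa held the reverse word ATTGG at -109 and -86. The RefSeq start of Cenpa lies inside the gene as the deposited table places it. The same holds for some other genes, and the windows of Cdca8 and Mad1l1 lie farther inside. A window therefore need not sit at the start of the gene in the deposited table. Zwint had CCAAT words at -37 and +14 and Mis12 had 4 of them, at -221, -140, -89 and -55, and neither window held a CHR word. The 3 examples do not stand for all genes that fell. Of the 30 genes with a promoter that fell at least 2-fold, 18 held a CHR word. Cenpe, Birc5 and Cenph fell more than Cenpa without one.

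Over the 44 promoters of the 40 genes, 47.7% held a CHR word, compared with 19.2% of all 32851 RefSeq promoters and 13.7% of the 13220 promoters of genes tested. A CCAAT word was present in 70.5% of these promoters, 37.4% of all promoters and 37.7% of promoters of genes tested. Both words stood together in 43.2%, 7.52% and 5.55% of the same sets. A CHR word within 50 bases of the start was found in 38.6% of the 44 promoters and in 5.31% of all promoters. A longer E2F word (TTT, then 2 bases that are C or G, then CGC) was rarer. It was found in 4 of the 44 promoters (9.09%), 2.26% of all promoters and 3.79% of promoters of genes tested. The 20 genes with a CHR word had a median log2 fold change of -1.87, and 18 of them had fallen at least 2-fold, the exceptions being Hjurp and Bub3. The 20 genes without it had a median of -1.46, and 12 of them had fallen at least 2-fold. The spreads overlapped, since Cenpe and Birc5 fell over 4-fold with no CHR word in the window. Among all genes tested with a promoter in the table, a CHR word was present in 24.6% of the 785 that fell at least 2-fold and in 15.4% of the other 9538. These sets include the 40 genes described here. A match is a description of the letters and not a measured binding site.

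**Figure D2:**
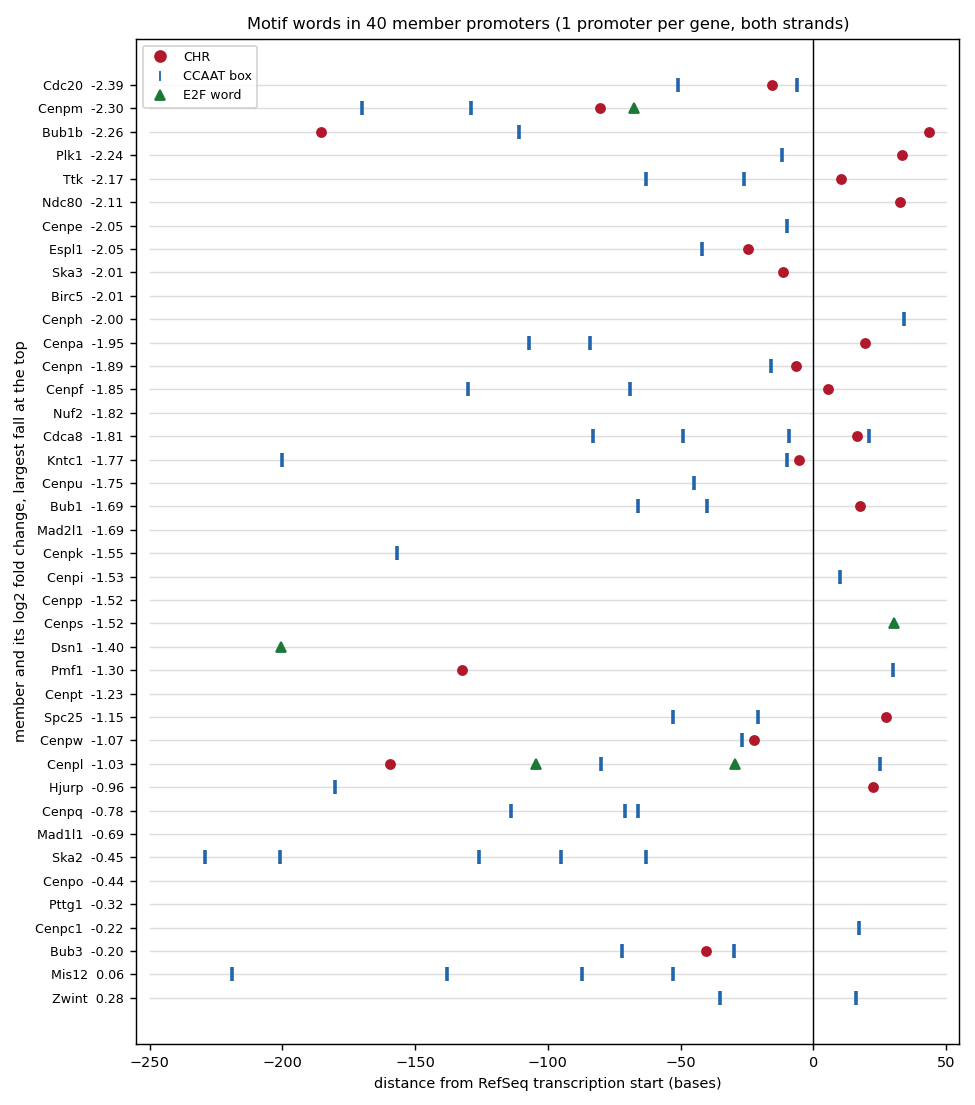
Positions of CHR, CCAAT and E2F words in the promoters of 40 genes, 1 promoter for each gene, as distance from the RefSeq start in bases. Genes run from the largest fall at the top to Zwint at the bottom, with the log2 fold change beside each name. CHR words cluster around the start of genes in the upper rows, and Hjurp and Bub3 hold the CHR words among the rows that fell less than 2-fold.

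CENP-A, the histone H3 variant that marks the centromere, and HJURP, the chaperone that deposits it, both fell, by different amounts. Cenpa (chr5:30666777-30674830) had 58.1, 60.5 and 56.9 CPM in the control libraries and 16.6, 14.2 and 14.6 CPM in the induced libraries. The groups did not overlap, and induced cells held 25.9% of the control level (log2 fold change -1.95, SE 0.07, edgeR adjusted p 3.78e-14). Hjurp (chr1:88262471-88277633) had 198.0, 205.8 and 197.7 CPM in control and 104.0, 107.2 and 98.4 CPM in induced libraries. It kept 51.5% of the control level, again without overlap (log2 fold change -0.96, SE 0.05, edgeR adjusted p 8.33e-12). Per kilobase of gene, the level of Hjurp over that of Cenpa was 2.41 ± 0.03 in control and 4.82 ± 0.46 in induced cells (SD, n = 3), a description with no test of its own.

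All 14 CCAN genes among the 46 fell, 11 of them at least 2-fold, with a median log2 fold change of -1.52. Of all genes tested, 32.2% fell and 7.83% fell at least 2-fold. Outside the 46, the CCAN genes Itgb3bp and Cenpx changed by -0.45 (edgeR adjusted p 0.0124) and -0.12 (edgeR adjusted p 0.291), so Cenpx did not pass. Cenpm, whose protein belongs to the CENP-H/I/K/M subgroup, had the largest fall. Cenpm (chr15:82233779-82244748) had 16.8, 17.5 and 17.0 CPM in control libraries and 4.09, 2.95 and 3.35 CPM in induced libraries, so that no library of one group reached the other (log2 fold change -2.30, SE 0.13, edgeR adjusted p 1.35e-11). The other members of that subgroup changed by -2.00 (Cenph), -1.53 (Cenpi) and -1.55 (Cenpk) on the log2 scale. Cenpn, which reads the CENP-A nucleosome, fell by 1.89 and its partner Cenpl by 1.03. The histone-fold subunits Cenpt, Cenpw and Cenps, which can bind DNA, changed by -1.23, -1.07 and -1.52. Cenpx is a histone-fold subunit as well, so this subgroup did not fall as a whole. Stretches of Cenpw match other genes at 95% identity or more, among them Mdga2 with 170 reads in control and 29 in induced libraries, so the count of Cenpw is uncertain.

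The remaining subgroup, CENP-O/P/Q/U, was split. Cenpu and Cenpp had log2 fold changes of -1.75 and -1.52, whereas Cenpq and Cenpo had -0.78 and -0.44. Cenpu, which carries a docking site for PLK1, shares 26.7% of its exon bases with Primpol on the opposite strand, and 22.5% of Cenpo overlaps neighbours, so both counts are uncertain where strand was not used. The call for Cenpo was not stable. Its adjusted p was 0.0134 by edgeR with all libraries and 0.0596 without control library 3, 0.0507 without induced library 2 and 0.0513 without induced library 3.

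Cenpc1 encodes CENP-C, the rod that spans from the CENP-A nucleosome to the MIS12 complex, and it changed least in this group. It had 18.3, 17.3 and 19.4 CPM in control and 15.2, 16.0 and 16.0 CPM in induced libraries. The groups lay next to each other without overlap, and 85.9% of the control level remained (log2 fold change -0.22, SE 0.08, edgeR adjusted p 0.0314). That call was lost by DESeq2 (adjusted p 0.0890), without control library 1 (edgeR adjusted p 0.0711) or 3 (0.148), and without induced library 1 (0.0893) or 3 (0.0632), so the fall of Cenpc1 is not firm. A stretch of at least 300 bases of Cenpc1 also matches Gtdc1 at 95.9% identity, so some of its reads may be shared. Per kilobase, Cenpc1 stood at 0.308 ± 0.02 of the level of Cenpm in control cells and at 1.33 ± 0.25 in induced cells (SD, n = 3). By this length measure Cenpc1 stood under Cenpm in every control library and over it in every induced library. In CPM, not divided by length, the 2 genes were close in control libraries with no steady order (Cenpm at 16.8, 17.5 and 17.0 CPM). The order in control cells therefore depends on the deposited gene lengths. In induced cells Cenpc1 was over Cenpm in CPM as well, and the change in the ratio does not depend on length.

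All 4 genes of the NDC80 complex, the main microtubule coupler, fell at least 2-fold, where 7.83% of all genes tested did. Their median log2 fold change was -1.96. Spc24 (chr9:21755442-21760303), from the end of the complex that faces the centromere, had 24.3, 28.8 and 26.3 CPM in control and 5.31, 4.84 and 5.87 CPM in induced libraries, with no overlap (log2 fold change -2.31, SE 0.11, edgeR adjusted p 1.12e-12). Ndc80 and Nuf2, which encode the microtubule-binding end, changed by -2.11 and -1.82. Ndc80 shares a near-identical stretch with 2700099C18Rik, which had 148 reads in control and 45 in induced libraries, so some reads may be shared. Spc25 (chr2:69193895-69206194), the direct partner of Spc24, had 15.5, 17.4 and 15.3 CPM in control and 7.71, 6.94 and 7.08 CPM in induced libraries. It also showed no overlap and kept 45.1% of its control level (log2 fold change -1.15, SE 0.11, edgeR adjusted p 2.24e-08). The products of these 2 genes form a dimer, and per kilobase Spc25 over Spc24 stood at 0.490 ± 0.02 in control and 1.10 ± 0.11 in induced cells (SD, n = 3).

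The MIS12 complex, which joins the CCAN to NDC80, held the only gene of the 46 that did not pass the test. Its subunits Dsn1, Nsl1 and Pmf1 changed by -1.40, -1.33 and -1.30 on the log2 scale, a narrow range. Dsn1 (chr2:156995265-157007154) had 15.3, 13.5 and 14.3 CPM in control and 5.42, 4.94 and 5.97 CPM in induced libraries (SE 0.12, edgeR adjusted p 5.48e-09). Mis12 (chr11:71019611-71027371), which names the complex and pairs with the product of Pmf1, had 22.8, 26.1 and 24.8 CPM in control and 25.0, 27.4 and 24.4 CPM in induced libraries. Here the groups overlapped. The log2 fold change was 0.06 with a 95% interval of -0.11 to 0.22 (SE 0.08, edgeR adjusted p 0.522), an interval that leaves out a fall of the size seen in the other 3 subunits. Per kilobase, Mis12 stood at 1.92 ± 0.25 times the level of Dsn1 in control and 5.30 ± 0.82 times in induced cells (SD, n = 3).

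**Figure D3:**
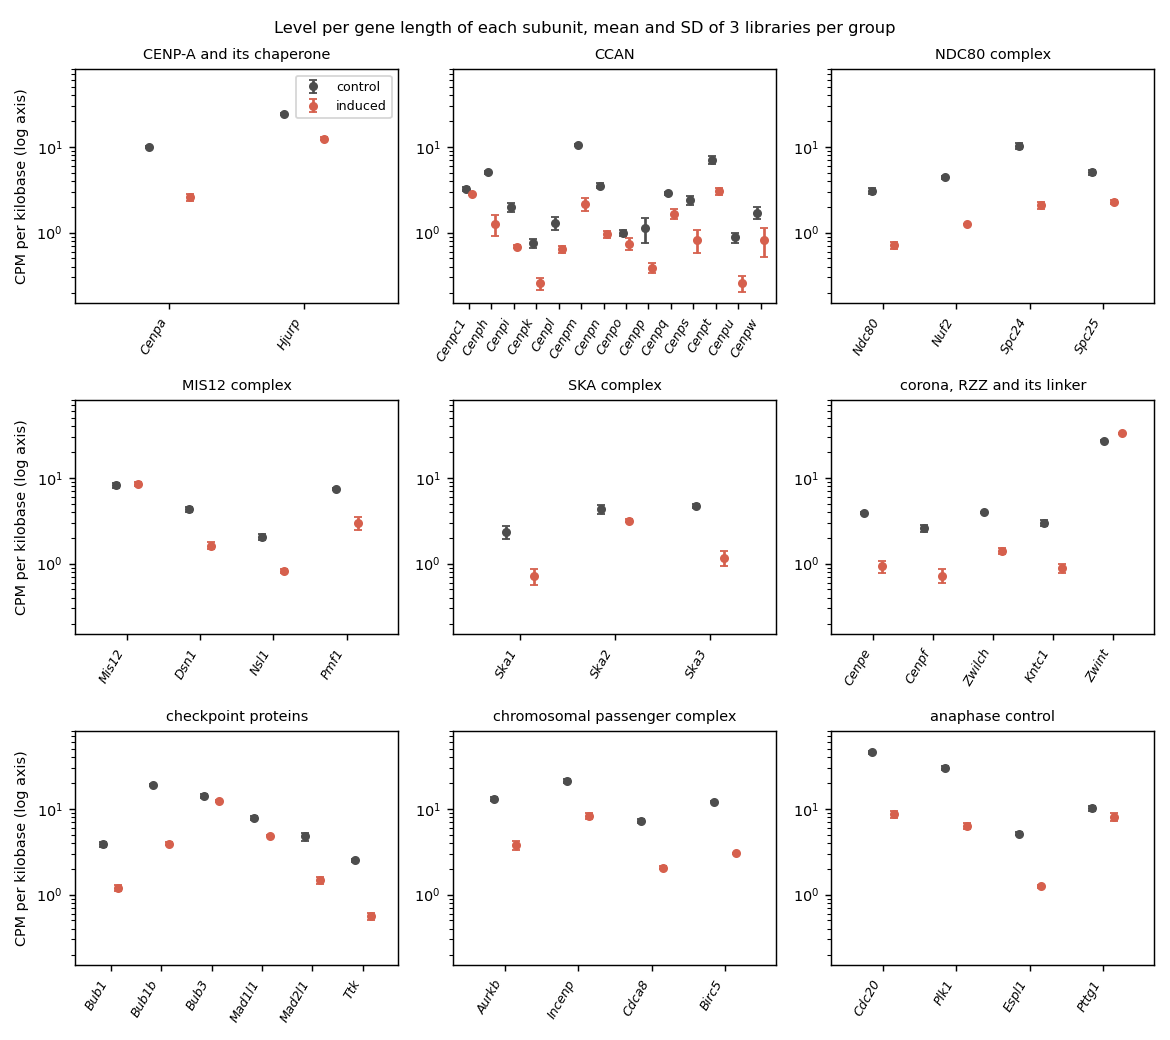
CPM per kilobase of gene length (log axis) for each gene, with control cells in grey and induced cells in red. Points are means and bars SD over 3 libraries. Within most panels the red points lie lower by different distances, and for Mis12 and Zwint they lie at or above the grey ones.

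The SKA complex, which tracks microtubule ends beside NDC80, showed the same kind of spread. Ska3 (chr14:57806561-57826185) had 12.2, 12.4 and 13.5 CPM in control and 2.92, 2.68 and 3.83 CPM in induced libraries, without overlap (log2 fold change -2.01, SE 0.14, edgeR adjusted p 5.25e-10). Ska1 changed by -1.72. Ska2 (chr11:87109234-87124635) had 12.3, 15.7 and 14.3 CPM in control and 10.4, 10.8 and 9.85 CPM in induced libraries. Its groups were separate but close, and 73.3% of its control level remained (log2 fold change -0.45, SE 0.11, edgeR adjusted p 0.00141). Ska2 over Ska3, per kilobase, was 0.920 ± 0.11 in control and 2.80 ± 0.61 in induced cells (SD, n = 3).

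The fibrous corona is the outermost layer, which carries motors and recruits dynein through the RZZ complex. Cenpe (chr3:135212537-135273611), a plus-end kinesin, had 33.7, 32.3 and 33.9 CPM in control and 7.65, 9.52 and 6.97 CPM in induced libraries, far apart from each other (log2 fold change -2.05, SE 0.10, edgeR adjusted p 2.15e-12). Cenpf, a large coiled-coil corona protein, fell by 1.85 on the log2 scale. The RZZ subunits Kntc1 and Zwilch changed by -1.77 and -1.48.

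Zwint (chr10:72654845-72674964), the linker that brings RZZ to the KNL1 scaffold, moved the other way. It had 119.5, 120.2 and 121.1 CPM in control and 148.1, 145.9 and 144.9 CPM in induced libraries. All 3 induced libraries lay over all 3 control libraries, and the rise was small, to 121.6% of the control level (log2 fold change 0.28, 95% interval 0.18 to 0.38, SE 0.05, edgeR adjusted p 4.07e-05). It was called higher under each of the 15 alternatives tried, with log2 fold changes of 0.25 to 0.30. Zwint has a near-identical copy, Gm8099, which held 1 read in control and 0 in induced libraries. Per kilobase, Zwint stood 7.02 ± 0.19 times over Cenpe in control cells and 35.9 ± 5.51 times over it in induced cells (SD, n = 3).

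The 6 checkpoint genes all fell, where 32.2% of all genes tested fell, but in different degrees. Bub1b (chr2:118598211-118641591) encodes BUBR1, a subunit of the mitotic checkpoint complex that inhibits CDC20. It had 81.3, 78.1 and 81.6 CPM in control and 15.9, 16.9 and 17.3 CPM in induced libraries, with no overlap and 20.9% of the control level left (log2 fold change -2.26, SE 0.06, edgeR adjusted p 5.64e-16). Ttk, the kinase MPS1 that starts checkpoint signalling, fell by 2.17 on the log2 scale. Bub1, a kinase and kinetochore scaffold, and Mad2l1, which encodes the MAD2 inhibitor of CDC20, both fell by 1.69. Mad1l1, the platform on which MAD2 is converted, fell by 0.69.

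Bub3 (chr7:131560222-131571895), the adaptor that carries BUB1 and BUBR1 to kinetochores, had 96.1, 104.4 and 95.7 CPM in control and 88.0, 87.3 and 83.0 CPM in induced libraries. The groups were separate by a narrow margin, and 87.2% of the control level remained (log2 fold change -0.20, SE 0.05, edgeR adjusted p 0.00409). The protein has uses outside the checkpoint, and its level per kilobase over that of Bub1b was 0.751 ± 0.06 in control and 3.14 ± 0.22 in induced cells (SD, n = 3). By this length measure Bub3 stood under Bub1b in all 3 control libraries and over it in all 3 induced libraries. In CPM, not divided by length, Bub3 was the higher of the pair in every library of both groups. The order in control cells therefore depends on the deposited gene lengths. The order in induced cells was the same by both measures, and the change in the ratio does not depend on length.

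**Figure D4:**
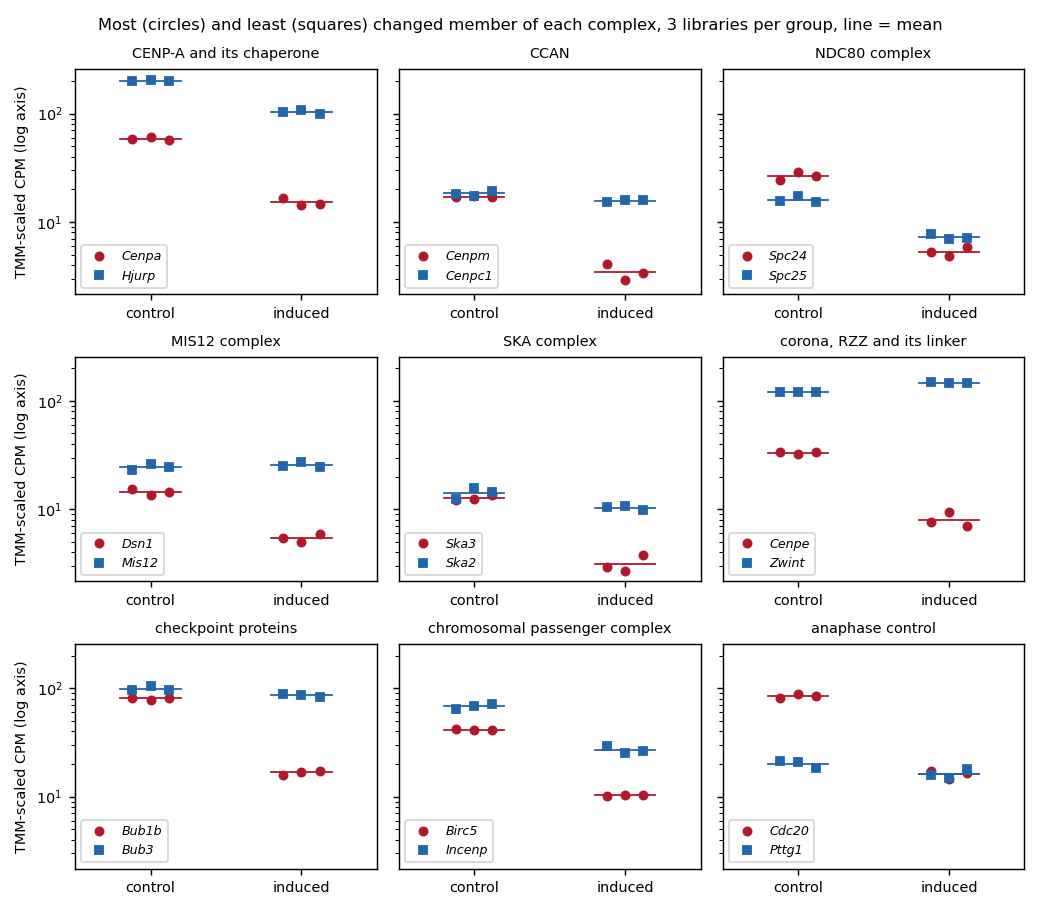
TMM-scaled CPM (log axis) in each of 3 control and 3 induced libraries for the most changed (red circles) and least changed (blue squares) gene of each group, with lines at the means. Red symbols fall clear of their control values in every panel. Blue symbols overlap between groups for Mis12, lie higher in induced libraries for Zwint, and lie lower for the others.

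The chromosomal passenger complex corrects faulty attachments. Its 4 genes all fell at least 2-fold, where 7.83% of all genes tested did. Their range was the narrowest of the groups with 3 or more genes. Aurkb, the kinase subunit, fell by 1.78 and Cdca8, which encodes borealin, by 1.81 on the log2 scale. Birc5 (chr11:117849251-117855743), which encodes survivin, had 42.0, 41.0 and 41.2 CPM in control and 10.1, 10.4 and 10.4 CPM in induced libraries (log2 fold change -2.01, SE 0.07, edgeR adjusted p 5.26e-14). The libraries were tightly grouped on either side. Incenp (chr19:9872297-9899533), the scaffold of the complex, had 64.1, 68.6 and 70.8 CPM in control and 29.1, 25.0 and 26.5 CPM in induced libraries, also without overlap (log2 fold change -1.34, SE 0.06, edgeR adjusted p 2.29e-12). Incenp over Birc5, per kilobase, was 1.73 ± 0.11 in control and 2.76 ± 0.25 in induced cells (SD, n = 3).

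The regulators of anaphase onset had the lowest median, -2.15, and also a large outlying member. Cdc20 (chr4:118432901-118437352), the activator of the anaphase-promoting complex (APC/C) and the target of the checkpoint, had the largest fall of all 46 genes. It had 80.5, 89.0 and 85.2 CPM in control and 17.4, 14.6 and 16.6 CPM in induced libraries, so that 19.1% of the control level remained (log2 fold change -2.39, SE 0.07, edgeR adjusted p 1.62e-15). Plk1, the polo-like kinase, and Espl1, which encodes the cohesin-cleaving protease separase, fell by 2.24 and 2.05 on the log2 scale. Pttg1 (chr11:43420250-43426251), which encodes securin, the inhibitor of separase, had 21.3, 20.7 and 18.5 CPM in control and 15.7, 14.8 and 18.0 CPM in induced libraries. The closest libraries of the groups nearly met, and 80.1% of the control level remained (log2 fold change -0.32, SE 0.09, edgeR adjusted p 0.00583). Pttg1 over Cdc20, per kilobase, was 0.223 ± 0.02 in control and 0.934 ± 0.09 in induced cells (SD, n = 3).

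Other genes of the same pathway were taken from lists drawn by function. Of 14 further kinetochore and centromere factors, 12 fell and none rose, where 32.2% of all genes tested fell, and their median log2 fold change was -1.54. Among them the cohesin protector Sgo2a changed by -2.01, and Cenpb, which binds a DNA element of the centromere repeat, by -0.06 (edgeR adjusted p 0.367). The scaffold Knl1, to which the products of Zwint and Bub1 bind, changed by -1.82. Zw10, the RZZ subunit that also serves in membrane traffic, changed by -0.38. Trip13, an ATPase that takes apart the checkpoint complex, changed by -2.00.

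Of the 14 subunits of the APC/C, the target of the checkpoint, 7 fell, none rose and 7 did not pass, with a median of -0.11, where 32.2% of all genes tested fell. Values ran from -0.58 for Anapc5 to 0.11 on the log2 scale, and Anapc1 stood at 0.00. The 4 partner genes of the APC/C all fell, from the E2 enzyme Ube2c at -1.99 to the chain-elongating E2 Ube2s at -0.32. Fbxo5, which encodes the interphase inhibitor EMI1, changed by -1.26, and Fzr1, which encodes the G1 activator CDH1, by -0.73. The 4 genes used as a reference for cycling cells also fell, with Ccnb1 at -2.04, Mki67 at -2.01, Top2a at -1.82 and Cdk1 at -1.46.

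**Figure D5:**
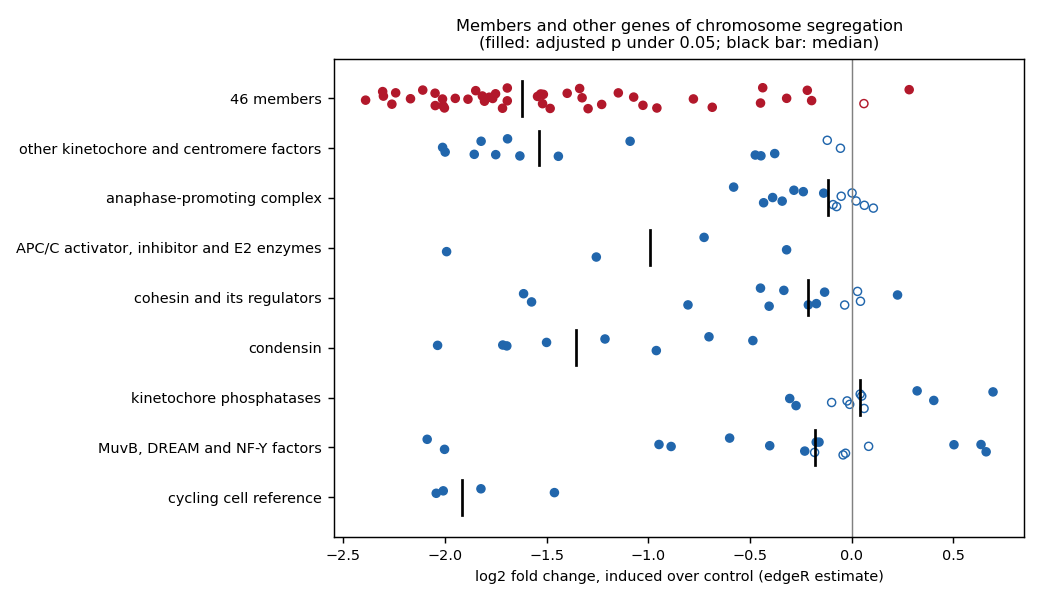
Log2 fold change (induced over control) of the 46 genes and of 8 other lists of chromosome segregation and cell cycle genes, 1 point per gene. Filled points passed an adjusted p of 0.05, and black bars are medians. The median is -1.62 for the 46 genes, -1.54 for the other kinetochore factors and -0.11 for the APC/C.

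The factors that bind the CHR and CCAAT words were measured as well. Of 16 genes for MuvB, DREAM and NF-Y subunits and their partners, 9 fell, 3 rose and 4 did not pass, with a median of -0.18, where 32.2% of all genes tested fell and 32.6% rose. The mitotic partners of MuvB fell, with Foxm1 at 77.6 ± 3.51 CPM in control cells against 18.3 ± 1.07 CPM in induced cells (SD, n = 3; a log2 fold change of -2.09 with an edgeR adjusted p of 3.07e-15) and Mybl2 at -2.00. The pocket protein genes moved in opposite directions, Rbl1 at -0.89 and Rbl2 at 0.50. Of the MuvB core genes, Lin9 stood at -0.95, Lin52 at 0.64 and Lin54, which binds the CHR, at -0.04 (edgeR adjusted p 0.751). Of the 3 NF-Y genes, Nfyc and Nfyb fell, with log2 fold changes of -0.40 and -0.23, and Nfya had -0.03 (edgeR adjusted p 0.632). The part of these levels in the fall of the 46 genes was not tested.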

How the data were processed

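RNA sequencing data of 3 control and 3 induced libraries were analysed, prepared by the authors with the NEBNext Ultra kit. The authors deposited a table of unnormalized counts, whole numbers of reads for each gene, and FPKM values, which are scaled by gene length and depth. The submitters' processing notes name HISAT2 2.0.5, featureCounts 1.5.0-p3, DESeq2 1.16.1 and the genome build mm10. The strand setting is not given in the sources used here. The deposited columns of fold changes and p-values and the deposited Gene Ontology tables hold the authors' own comparisons and were not used.

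The analysis used edgeR 4.0.16 under R 4.3.3. The function filterByExpr, with a minimum count of 10 and a minimum total of 15, kept 14246 genes, and TMM factors were applied. Both groups were compared by the quasi-likelihood test, two-sided, at a Benjamini-Hochberg adjusted p of 0.05. CPM are read counts scaled to a common library size. The fit ran over all genes tested. Levels are TMM-scaled CPM, divided by the deposited gene length where genes are compared. Intervals are at 95%. Groups were taken from the sample labels.

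The 46 genes and the other lists were chosen with earlier results of these data known. Full values are given for the most and the least changed gene of each group and for each gene that rose or did not pass, and in the other lists the most and least changed gene was named by rule. Further genes of those lists were named for their role after their values were seen. Coordinates are those of the deposited table, and 45 of the 46 genes have the same coordinates in GENCODE M21. Near-identical copies were sought by BLAST of M21 transcripts (at least 300 aligned bases at 95% identity). Promoters came from RefSeq on GRCm38.p6.

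Total counts of 19041133 to 19823369 gave at least 42 reads per control library and 15 per induced library for each of the 46 genes. Libraries within a group differed by more than counting noise (2.56 to 8.91 as chi-square per degree of freedom), and none were merged. Alternatives were DESeq2 1.42.0, other scalings, filters and thresholds, limma 3.58.1 on log2 FPKM with pseudocounts of 1 and 0.1, a replicate block and leaving out each library.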

Additional observations from a re-analysis of the deposited data

How the results depend on the processing

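Of the 46 genes, 42 to 44 were called lower and 1 was called higher under all 15 alternatives, and the number of all genes called ran from 7783 (adjusted p of 0.01) to 9765 (no filter). The genes whose call changed were Cenpc1 and Cenpo. Cenpc1 was lost by DESeq2 (adjusted p 0.0890), with no filter (edgeR, 0.0682), by limma on log2(FPKM + 1) (0.0514) and log2(FPKM + 0.1) (0.0553) and at the threshold of 0.01, besides the libraries named with it above. Cenpo was lost at 0.01 and without the libraries named with it. For the 18 genes given in full, 261 of 270 values kept their direction and their side of the threshold, none reversed, and the other 9 were those of Cenpc1. The median log2 fold change of the 46 genes moved to -1.04 by limma on log2(FPKM + 1) and to -1.44 on log2(FPKM + 0.1), since a pseudocount pulls low values together. It ran from -1.69 to -1.59 when each library was left out. Library totals alone shifted the median of all genes tested from -0.01 to -0.04 and left every call on the 46 genes in place. Replicate numbers did not pair the libraries (correlations of same-numbered deviations -0.00, -0.02 and 0.03), and with the replicate block 9063 genes were called, 44 of the 46 lower, with a median of -1.62. Depth limited the CCAN genes of low counts, where the standard error reached 0.28. Intervals cover the spread between these libraries, which may be technical.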

Other observations

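The machinery that holds and folds sister chromatids was measured beside the kinetochore genes. All 8 condensin genes fell by edgeR's quasi-likelihood test, where 32.2% of all genes tested fell, with a median log2 fold change of -1.36. Ncapd2, a subunit of condensin I that acts on mitotic chromosomes, fell from 135.6 to 33.1 CPM (log2 fold change -2.04), and Ncaph2, the kleisin of condensin II, fell by 0.49. Of 13 genes for cohesin and its regulators, 9 fell, 1 rose and 3 did not pass, with a median of -0.21, where 32.2% of all genes tested fell and 32.6% rose. Cdca5, which encodes sororin, and Esco2, an acetyltransferase of S phase, fell by 1.61 and 1.57. Esco1, the acetyltransferase that acts through the whole cycle, rose by 0.23 (edgeR adjusted p 0.0451), and Wapl, which opens the ring, stood at 0.03 (edgeR adjusted p 0.706).

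Of 11 genes for subunits of PP1 and PP2A, the phosphatases that silence the checkpoint and have many other uses, 2 fell, 3 rose and 6 did not pass, where 32.2% of all genes tested fell and 32.6% rose. Ppp2r5b, a B56 regulatory subunit, had 43.6 CPM in control cells against 70.5 CPM in induced cells, a log2 fold change of 0.69 with an edgeR adjusted p of 1.60e-09. Ppp2r5c, another B56 subunit, had a log2 fold change of -0.01.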
